A study of Mus musculus with 59 samples.

Results

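The genes for the voltage-gated calcium channels, the voltage-gated sodium channels and the HCN pacemaker channels were followed through the cerebral cortex and hippocampus of male mice. Members were taken by symbol: the α1, α2δ, β and γ subunit genes of the calcium channels, the α and β subunit genes of the sodium channels, and the HCN genes. This gave 40 genes of the 57180 gene rows counted, of which 25 encode calcium channel subunits, 12 sodium channel subunits and 3 HCN subunits. Shares of a family are shares of the members counted here.

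The study compared 4 genotypes that combine heterozygous mutation of Slc25a1, which encodes the mitochondrial citrate carrier, and of Mrpl40, a gene for a mitochondrial ribosomal protein. The groups were wild type (Mrpl40 +/+, Slc25a1 +/+), Slc25a1 heterozygous (Mrpl40 +/+, Slc25a1 -/+), Mrpl40 heterozygous (Mrpl40 -/+, Slc25a1 +/+) and double heterozygous (Mrpl40 -/+, Slc25a1 -/+). Poly(A) RNA was sequenced from 30 animals, with 9 cortex and 8 hippocampus libraries labelled wild type and 7 libraries in every other group, 59 libraries in all; 29 animals gave both tissues, 8 of them wild type by label. All mice were male, no treatment was given, and the age, strain and kind of mutation were not given in the sources used here.

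Voltage-gated calcium channels open on depolarization and let in calcium, which triggers transmitter release, shapes dendritic excitability and starts signalling to the nucleus; their pore is the α1 subunit, and α2δ and β subunits set how many channels reach the membrane and how they gate. Voltage-gated sodium channels carry the upstroke of the action potential, with a pore-forming α subunit and β subunits that tune gating and also act as adhesion molecules. HCN channels open on hyperpolarization, pass a mixed cation current, and in cortical and hippocampal pyramidal neurons damp dendritic signals.

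Library totals ran from 21443017 to 32120906 counted reads. Slc25a1 itself fell into 2 separate levels, 10.8 to 13.0 CPM (counts scaled to a common library total) in 12 cortex libraries and 20.9 to 26.2 in the other 18, with the same split in hippocampus (10.7 to 12.9 in 12 libraries, 21.1 to 27.4 in 17). In 6 animals this level went against the label in both tissues: 2 labelled wild type, 2 Slc25a1 heterozygous and 2 double heterozygous. Groups are therefore named by their labels throughout, and the main counts are given with and without these 6 animals. Neocortical marker genes summed to 775 to 1077 CPM in cortex and 167 to 266 in hippocampus, and hippocampal excitatory markers to 146 to 225 and 883 to 1756, so every library was nearer to its labelled tissue. Among hippocampus libraries, 1 Slc25a1 heterozygous library (replicate 3) held cerebellar markers at 507 CPM against a median of 13.9 in its group, and the Mrpl40 heterozygous replicate 5 and double heterozygous replicate 6 held choroid plexus markers at 75.8 and 95.5. Wild-type hippocampus replicate 8 had the lowest hippocampal marker sum, 883, the highest neocortical sum, 266, and the highest oligodendrocyte marker sum, 4318.

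The first comparison asked how the channel genes differ between the tissues of the same animals. In the 8 pairs labelled wild type, hippocampus had far more transcript of Cacna1h, Scn3b and Cacng8 than cortex, and far less of Scn4b, Cacna1g, Cacnb4 and Cacng3. Of the 37 members with enough reads to test, 9 were higher in hippocampus, 24 were lower and 4 did not pass the test (edgeR quasi-likelihood test with the animal as a block, Benjamini-Hochberg adjusted p under 0.05 over 21354 genes). That is 89.2% of the members, where 60.6% of all genes tested passed. In the lower direction the share was 24 of 37 against 30.1% of all genes, and in the higher direction 9 of 37 against 30.4%. A difference of at least 2-fold was passed by 13 members, or 35.1%, and by 13.7% of all genes. The median difference of the members was -0.43 on the log2 scale (hippocampus minus cortex), and that of all genes 0.01. Among genes with a mean of at least 5 on the log2 CPM scale, 92.3% of 26 members and 74.0% of all genes passed. For 19 members the 8 hippocampus libraries all lay below the 8 cortex libraries, as for 14.3% of all genes, and for 8 members all lay above, as for 13% of all genes. Among the 24 lower members, Cacna1s and Scn10a had enough reads to test in the cortex fit and not in the hippocampus fit. They entered the tissue test through cortex, where they are higher, so their direction followed from the filter. Both are also among the 13 members with at least 2-fold, and Scn10a is among the 19 without overlap. Without the 6 animals whose Slc25a1 level went against the label, 8 members were higher and 24 lower. All genes that passed then numbered 11800, against 12932 with these animals. In whole tissue, fewer cells of a type and less RNA per cell cannot be told apart.

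**Figure D1:**
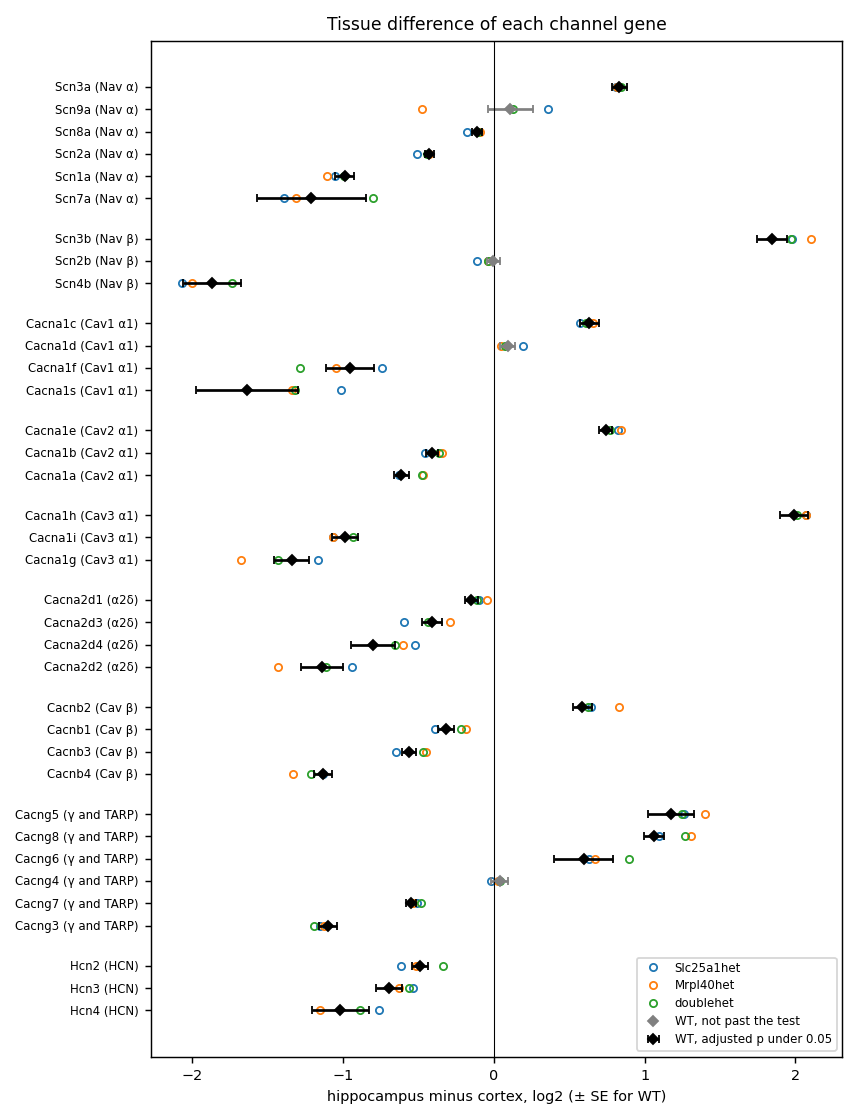
Difference between hippocampus and cortex on the log2 scale (x axis) for the members tested except Scn10a, grouped by subunit family (y axis). Diamonds with bars are the wild-type animals (difference ± SE, n = 8 pairs; grey where the test was not passed), and open circles the other 3 genotypes (n = 7 pairs each); among the diamonds Cacna1h at 1.99 and Scn3b at 1.84 lie farthest to the right and Scn4b at -1.87 farthest to the left.

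The 3 T-type calcium channel genes, whose channels open near the resting potential and drive burst firing, split between the tissues. Cacna1h (Cav3.2, chromosome 17, 25374285 to 25433783 on GRCm38) ran from 49.8 to 80 CPM in the 8 wild-type cortex libraries, with a median of 62.9, and from 169 to 290 in hippocampus, with a median of 259. The highest cortex library lay below the lowest hippocampus library, and the difference was 1.99 ± 0.09 on the log2 scale (SE, n = 8 pairs, edgeR adjusted p = 1.14e-16), or 3.97-fold. Cacna1g (Cav3.1) went the other way, from 119 to 170 CPM (median 142) in cortex and 41.2 to 82.3 (median 54.5) in hippocampus, a difference of -1.34 ± 0.12 (SE, n = 8 pairs, edgeR adjusted p = 8.17e-11). Cacna1i (Cav3.3) ran from 126 to 158 CPM (median 150) and from 58.7 to 84.4 (median 73.1). All 8 animals had less of both genes in hippocampus, with no overlap between tissues. Levels of different genes were compared as CPM per kilobase of exon. On that scale the summed T-type level was close in the 2 tissues, 35.7 in cortex and 39.0 in hippocampus, and its make-up was not. Cacna1h held 17.9% ± 2.06 of the family in cortex (SD, n = 9) and 65.7% ± 6.25 in hippocampus (SD, n = 8). Cacna1i held 42.2% ± 3.05 and 19.3% ± 2.5, and Cacna1g 40.0% ± 1.90 and 15.0% ± 4.31.

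The Cav2 genes, whose P/Q-type and N-type channels open at stronger depolarization and supply calcium for transmitter release, also split. Cacna1e (R-type, chromosome 1) ran from 246 to 313 CPM in wild-type cortex, with a median of 263, and from 390 to 475 in hippocampus, with a median of 452. The tissues did not overlap, and the difference was 0.74 ± 0.05 (SE, n = 8 pairs, edgeR adjusted p = 4.49e-16). Cacna1a (P/Q-type) fell from a cortex median of 233 to a hippocampus median of 149, a difference of -0.61, and Cacna1b (N-type) from 160 to 120, a difference of -0.41; neither overlapped between tissues. Per kilobase of exon, Cacna1a was the highest of the family in cortex with 43.4% and Cacna1e the lowest with 22.3%; with the longest transcript Cacna1b was the lowest there with 25.9% and Cacna1e held 27.9%. In hippocampus Cacna1e was the highest with 40.8% ± 2.15 (SD, n = 8), Cacna1a had 31.0% and Cacna1b 28.2%.

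Among the L-type Cav1 genes, which couple activity to transcription in neurons, Cacna1c (Cav1.2) was the member that was higher in hippocampus. It ran from 99.3 to 122 CPM in cortex, with a median of 112, and from 140 to 194 in hippocampus, with a median of 177, a difference of 0.63 ± 0.07 (SE, n = 8 pairs, edgeR adjusted p = 7.71e-10). Cacna1d (Cav1.3) had medians of 76.1 and 82.9 CPM with overlapping libraries, and its difference of 0.09 did not pass (edgeR adjusted p = 0.107). Without wild-type hippocampus replicate 8, a setting chosen after seeing the data, the Cacna1d difference was 0.13 (edgeR adjusted p = 0.0275). Cacna1c and Cacna1d together made up nearly all of the family: Cacna1d held 52.1% and Cacna1c 45.9% per kilobase in cortex, and Cacna1c 55.6% and Cacna1d 43.7% in hippocampus. The order in cortex depends on the length used, since with the longest transcript Cacna1c held 51.1% there. Cacna1s and Cacna1f, the muscle and retinal L-type genes, had medians of 0.512 and 1.44 CPM in cortex and 0.134 and 0.733 in hippocampus. Their differences were -1.64 ± 0.34 and -0.95 ± 0.16 on the log2 scale. Cacna1s had enough reads to test in the cortex fit alone, so the direction of its difference followed from the filter. Of the exon bases of Cacna1s, 20.0% are shared with a gene on the opposite strand.

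**Figure D2:**
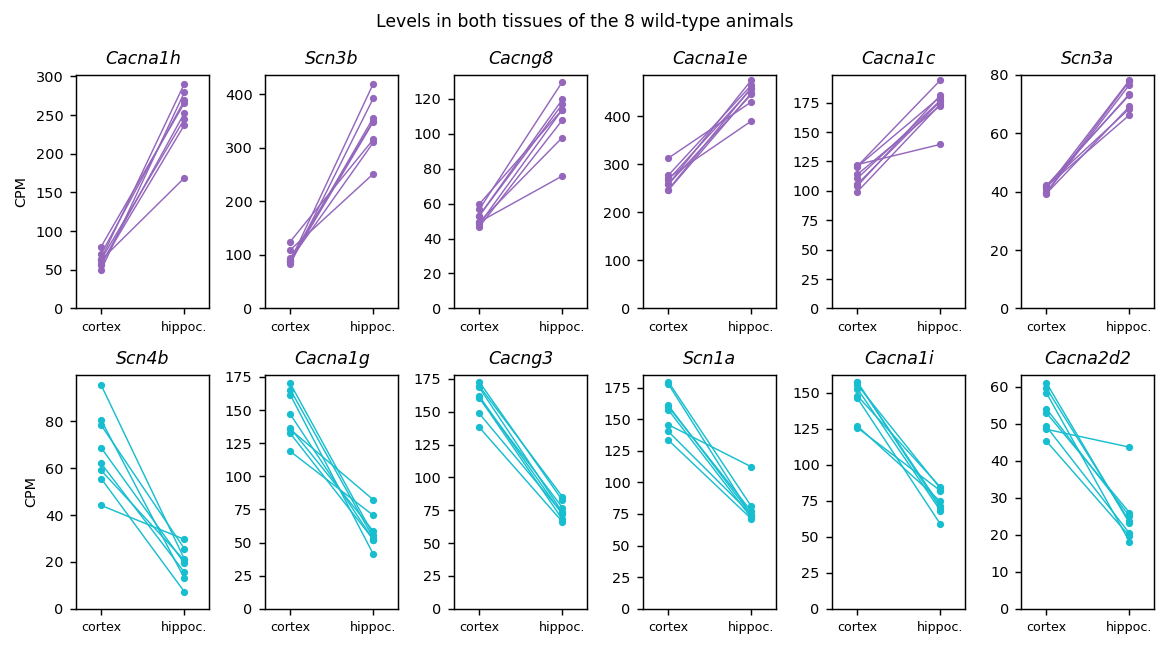
Level in CPM (y axis, from 0) of 12 channel genes in cortex and hippocampus (x axis), with a line for each of the 8 animals labelled wild type. The 6 upper panels are genes higher in hippocampus and the 6 lower panels genes lower there, and in each panel the 8 lines run the same way.

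All 4 α2δ genes, which encode the extracellular subunit that traffics calcium channels, were lower in hippocampus. The largest difference was that of Cacna2d2, which ran from 45.3 to 61.1 CPM in cortex (median 53.5) and from 18.2 to 43.7 in hippocampus (median 23.4), -1.14 ± 0.14 on the log2 scale (SE, n = 8 pairs, edgeR adjusted p = 9.31e-08). The 43.7 CPM came from replicate 8, and the next highest library was at 26.0. Cacna2d4 differed by -0.80 at a cortex median of 2.98 CPM, Cacna2d3 by -0.41 and Cacna2d1 by -0.15. Cacna2d1 was the highest of the group per kilobase, with 47.3% in cortex and 55.5% in hippocampus; with the longest transcript Cacna2d3 led in cortex with 43.9%.

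Of the β genes, which encode the cytoplasmic subunit that binds the α1 loop and holds the channel at the membrane, 1 was higher and 3 were lower. Cacnb4 ran from 184 to 237 CPM in cortex (median 211) and from 79.7 to 141 in hippocampus (median 92.5), a difference of -1.13 ± 0.06 (SE, n = 8 pairs, edgeR adjusted p = 2.81e-16). An opposite-strand gene shares 16.0% of its exon bases. Cacnb2 ran from 35.0 to 47.2 CPM (median 39.9) and from 54.6 to 68.0 (median 58.8), and was higher by 0.59 ± 0.06. Cacnb3, the highest of the family per kilobase with 55.5% in cortex and 54.8% in hippocampus, was lower in hippocampus (-0.56 on the log2 scale), as was Cacnb1 (-0.31, or -0.20 with offsets for gene length and GC content). The summed β level was 137 CPM per kilobase in cortex and 94.6 in hippocampus.

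The γ group holds a skeletal muscle calcium channel subunit (Cacng1), and otherwise mostly TARPs, proteins that bring AMPA receptors to the synapse and slow their closing. Of its 6 members tested, 3 were higher in hippocampus, 2 lower and 1 did not pass. Cacng8, the TARP γ-8, ran from 46.7 to 59.7 CPM in cortex (median 51.2) and from 75.8 to 130 in hippocampus (median 114), 1.06 ± 0.07 on the log2 scale (SE, n = 8 pairs, edgeR adjusted p = 1.34e-14). Cacng3 ran from 138 to 173 CPM (median 161) and from 66.3 to 85.4 (median 73.1), -1.10 ± 0.06 (SE, n = 8 pairs, edgeR adjusted p = 1.39e-16). Cacng7 had medians of 218 and 149 CPM, and its libraries were tight, 209 to 230 in cortex and 142 to 155 in hippocampus. Cacng5 was lower in level and higher in hippocampus, with medians of 4.47 and 10.3 CPM and a difference of 1.18 ± 0.15. Cacng6 had medians of 1.31 and 2.28 CPM with overlapping libraries; its difference of 0.60 ± 0.19 (edgeR adjusted p = 0.00848) was 0.44 (edgeR adjusted p = 0.0903) without the 6 animals. Cacng4 did not pass, with medians of 27.8 and 29.1 CPM. Within these 7 genes, Cacng7 held 49.4% per kilobase in cortex, Cacng3 32.7% and Cacng8 12.5%. In hippocampus Cacng7 held 41.6%, Cacng8 31.8% and Cacng3 18.4%.

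**Figure D3:**
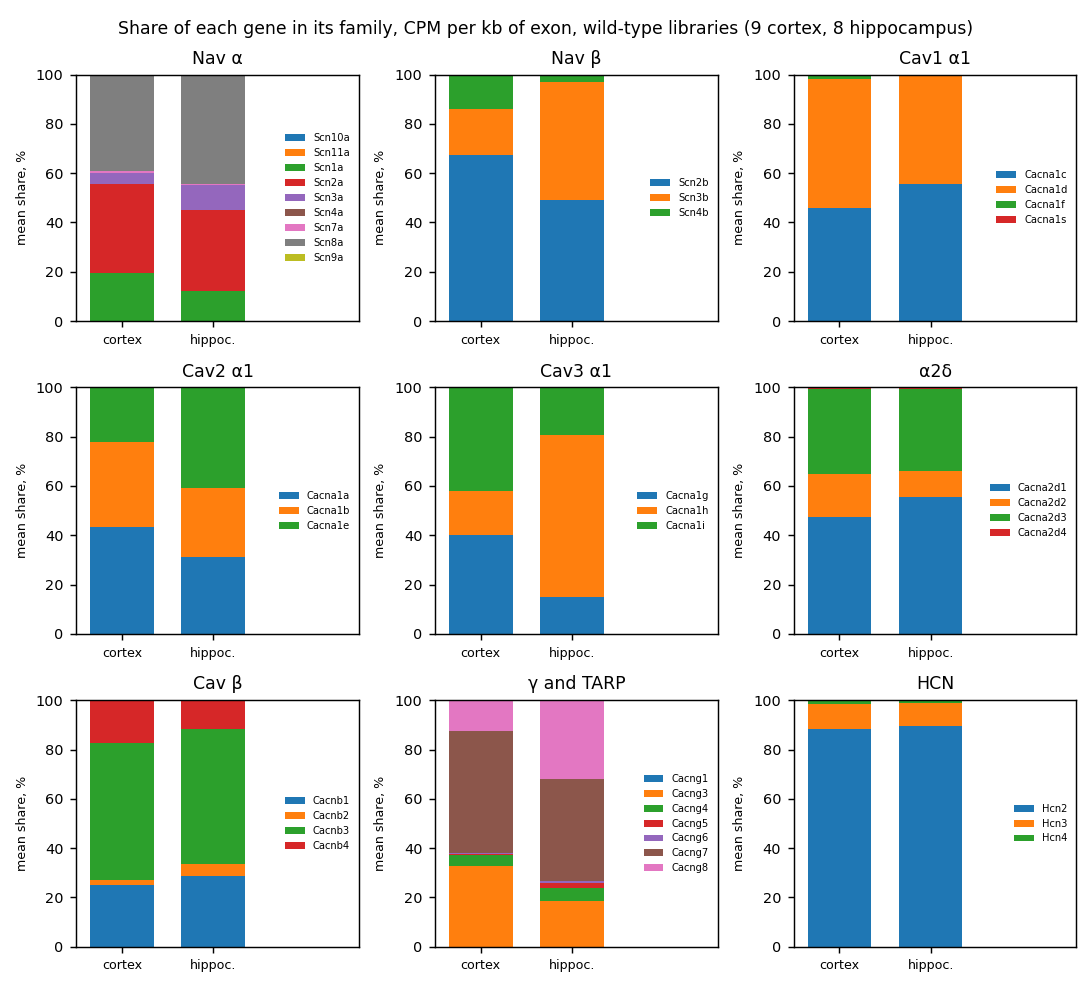
Mean share (y axis, percent) of each gene in the summed CPM per kilobase of exon of its subunit family, in the wild-type cortex (n = 9) and hippocampus (n = 8) libraries (x axis). The widest shift is that of Cacna1h in the Cav3 family, from 17.9% to 65.7%.

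Among the sodium channel α genes, Scn8a, Scn2a and Scn1a made up most of the signal in both tissues. These encode the main pore-forming subunits of the adult brain, Scn1a with a leading part in inhibitory neurons. Per kilobase, Scn8a held 38.8% in cortex and 43.9% in hippocampus, Scn2a 35.9% and 32.9%, and Scn1a 19.5% and 12.1%. Scn1a ran from 133 to 180 CPM in cortex (median 159) and from 71.1 to 112 in hippocampus (median 74.3), a difference of -0.99 ± 0.06 (SE, n = 8 pairs, edgeR adjusted p = 1.40e-14). Scn2a and Scn8a were lower in hippocampus, at -0.43 and -0.11 on the log2 scale. Scn3a, which is best known from the embryonic brain, was the α gene that was higher: its libraries ran from 39.3 to 42.1 CPM in cortex (median 41.3) and from 66.2 to 78.1 in hippocampus (median 73.3), 0.83 ± 0.05 (SE, n = 8 pairs, edgeR adjusted p = 7.77e-17). Its share of the α group was 4.52% in cortex and 9.97% in hippocampus.

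The remaining α genes were scarce. Scn7a, which encodes the sodium-sensing channel Nax, ran from 3.01 to 4.75 CPM in cortex (median 3.88) and from 0.881 to 2.96 in hippocampus (median 1.45), a difference of -1.21 ± 0.36 (SE, n = 8 pairs, edgeR adjusted p = 0.00499). Scn9a, a channel gene of sensory neurons, had a cortex median of 4.46 CPM and did not pass. Scn10a, a channel of sensory neurons, had 2 to 15 counts in each of the 8 wild-type cortex libraries, 46 in all, and 0 in each of the 8 hippocampus libraries. Against a floor of 3 counts over the group it was at least 13.5-fold lower in hippocampus. Over all genotypes 25 of 29 hippocampus libraries had no Scn10a count and the highest had 1. Scn10a had enough reads to test in the cortex fit alone, so its direction followed from the filter. Scn4a and Scn11a, muscle and sensory channel genes, had at most 11 and 7 counts in any library and were not tested, like Cacng1 with at most 3.

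The sodium channel β genes gave the second largest rise and, after Scn10a, the largest fall of all members. Scn3b (chromosome 9, 40269217 to 40291618 on GRCm38) ran from 82.4 to 125 CPM in cortex (median 89.5) and from 251 to 419 in hippocampus (median 349). The tissues did not overlap, and the difference was 1.84 ± 0.10 (SE, n = 8 pairs, edgeR adjusted p = 3.53e-15), or 3.59-fold. Scn4b, whose product promotes the resurgent sodium current of fast-firing neurons, ran from 44.1 to 95.5 CPM in cortex (median 65.4) and from 7.31 to 29.6 in hippocampus (median 20.1), -1.87 ± 0.19 (SE, n = 8 pairs, edgeR adjusted p = 2.75e-09). Scn2b had medians of 295 and 296 CPM and a difference of -0.0028 ± 0.04 that did not pass (edgeR adjusted p = 0.960). Among these 3 genes, Scn3b thereby moved from 18.5% ± 2.68 of the summed level per kilobase in cortex (SD, n = 9) to 47.8% ± 3.47 in hippocampus (SD, n = 8). Scn2b held 67.4% in cortex and 49.2% in hippocampus, where it did not differ from Scn3b beyond the spread, and Scn4b 14.2% and 2.97%. With the longest transcript Scn3b led in hippocampus with 54.6%.

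The HCN genes Hcn2, Hcn3 and Hcn4 were each lower in hippocampus. Hcn2 ran from 99.0 to 125 CPM in cortex (median 112) and from 66.0 to 95.0 in hippocampus (median 81.3), -0.49 ± 0.05 (SE, n = 8 pairs, edgeR adjusted p = 4.37e-10). With offsets for gene length and GC content this was -0.25. Hcn3 differed by -0.70 and Hcn4 by -1.02 on the log2 scale, at cortex medians of 17.7 and 3.18 CPM; 17.1% of the exon bases of Hcn3 lie over a gene on the opposite strand. Among these 3 genes the make-up was close in both tissues: Hcn2 held 88.2% per kilobase in cortex and 89.7% in hippocampus, Hcn3 10.4% and 9.31%, and Hcn4 1.44% and 0.984%.

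Some members lie beside another member in the genome. With a gap of at most 500 kb there were 11 neighbouring pairs. Both members passed in 4 pairs, in opposite directions in 3 and in the same direction in 1. No matching share over all neighbouring genes is given here, so these counts are a description. On chromosome 7 (GRCm38), Cacng7 (3332955 to 3368221), Cacng8 (3390683 to 3415648) and Cacng6 (3424195 to 3435667) follow each other on the same strand; Cacng7 was lower in hippocampus (-0.55) and Cacng8 and Cacng6 were higher (1.06 and 0.60). On chromosome 2, Scn3a (65457118 to 65567627) was higher (0.83) and Scn2a (65620771 to 65767447), which follows it on the other strand, lower (-0.43); Scn1a, Scn9a and Scn7a lie farther along, at -0.99, 0.11 and -1.21, of which the Scn9a value did not pass. On chromosome 9, Scn2b (45117782 to 45130070) and Scn4b (45138395 to 45154152) are 8.33 kb apart, with differences of -0.0028 and -1.87. On chromosome 6, Cacna1c was higher (0.63) and the adjacent Cacna2d4, on the other strand, lower (-0.80). Elsewhere Cacna2d3 (-0.41) lies beside Cacna1d (0.09, not passed), Cacng5 (1.18) beside Cacng4 (0.04, not passed), Cacng4 beside Cacng1 (not tested), and Scn10a beside Scn11a (not tested). In all, 19 of the 40 members belonged to such a pair.

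Proteins that bind or regulate these channels were counted with some related cation channels from a separate list of 35 genes. The related channels, with the sodium leak channel, were 10 of the 35. Of the 35, 33 were tested: 9 were higher in hippocampus, 13 lower and 11 did not pass, against the same 60.6% of all genes. The 4 largest differences were those of calcium channel regulators. Cachd1, an α2δ-like protein of T-type channels, ran from 8.4 to 11.4 CPM in cortex (median 9.07) and from 28.3 to 56.0 in hippocampus (median 39.1), 2.09 ± 0.11 on the log2 scale (SE, n = 8 pairs, edgeR adjusted p = 1.39e-15). Stac, an adaptor of L-type channels, had medians of 0.644 and 2.58 CPM (1.75 ± 0.39). Stac2, with medians of 157 and 75.5 CPM (-0.91), and Stac3, with 8.55 and 3.86 (-1.12), went the other way. Rem2, a small GTPase that inhibits calcium channels, had medians of 2.98 and 9.19 CPM (1.5 ± 0.21). Cabp1, a calcium-binding protein that modulates Cav1 and Cav2 channels, had medians of 239 and 72.2 CPM (-1.70 ± 0.06). Of 11 sodium channel partners, 3 were higher and 5 lower. The sodium leak and other cation channel list, with 3 of 8 higher and 1 lower, had no difference beyond 0.23 among the members that passed.

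Markers of several cell types moved with these differences. Parvalbumin interneuron markers were lower in hippocampus in 4 of 4 (median -1.18; Pvalb -1.75, Syt2 -1.79), with a summed level of 376 to 475 CPM in wild-type cortex and 256 to 311 in hippocampus. Other interneuron markers were lower in 4 of 5 (median -0.60). All 7 neocortical excitatory markers were lower (median -2.64) and 7 of 8 hippocampal excitatory markers higher (median 3.87). Of the striatal markers reported, Drd2 (2.5) and Adora2a (0.53) were higher and Ppp1r1b (-0.88) and Drd1 (-0.38) lower. Thalamic markers were higher in 4 of 5 (median 0.55) and astrocyte markers higher in 4 of 5 and lower in 1. None of the 6 oligodendrocyte, 5 microglia or 4 endothelial markers passed. The part of cell make-up in the channel differences was not tested.

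The same tissue comparison in the other genotypes used different animals. The members higher and lower in hippocampus numbered 10 and 24 in Slc25a1 heterozygous mice (60.4% of all genes passed), 9 and 24 in Mrpl40 heterozygous mice (60.3%) and 9 and 23 in double heterozygous mice (57.5%). Across the 4 genotypes 22 members were lower and 9 higher in each, 1 passed in none, and 5 differed in their call. No share of all genes called alike in the 4 genotypes is given here, so these counts are a description. The 22 include Cacna1s and Scn10a, whose direction followed from the filter. Cacna1h was higher by 1.99, 2.07, 2.07 and 2.01 in wild type, Slc25a1 heterozygous, Mrpl40 heterozygous and double heterozygous animals, and Scn3b by 1.84, 1.98, 2.10 and 1.97. Scn4b was lower, at -1.87, -2.07, -2.0 and -1.74. The 5 with differing calls were Cacna1d, Cacna2d1, Scn2b, Scn7a and Scn9a. Among them Scn9a stood at 0.11, 0.36, -0.47 and 0.13, and passed in Mrpl40 heterozygous animals alone (edgeR adjusted p = 0.0135); the difference of that value from wild type did not pass (edgeR adjusted p = 0.83). Over all 4 genotypes no hippocampus library reached down to a cortex library for Cacna1h, at 49.8 to 80 CPM in 30 cortex and 169 to 328 in 29 hippocampus libraries, or for Scn3b, at 74.6 to 125 and 251 to 473.

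The second set of comparisons asked whether the mutations, singly or together, changed the channel genes within a tissue. No member passed the edgeR quasi-likelihood test in any of the 15 comparisons: each heterozygous group against wild type, the double against each single, the interaction of both mutations, and the difference of each genotype's effect between tissues. The count was also 0 in each of them without the 6 animals whose Slc25a1 level went against the label, and the DESeq2 Wald test called 1 member in 1 comparison. Few of all the genes tested did: in cortex 0% (Slc25a1 heterozygous), 0.0294% (Mrpl40 heterozygous) and 0.0686% (double heterozygous) against wild type, 0.0588% and 0.0049% for the double against the Slc25a1 and the Mrpl40 heterozygous group, and 0% for the interaction. In hippocampus they were 0%, 0.00496% and 0.00992% against wild type and 0% in the other 3 comparisons, and between tissues 0%, 0% and 0.0234%. At an unadjusted p under 0.05, members numbered 2 (Slc25a1 heterozygous), 4 (Mrpl40 heterozygous) and 2 (double heterozygous) of 37 in cortex, where 3.17%, 6.94% and 10.9% of all genes lay. In hippocampus they numbered 0, 3 and 2 of 35, where 7.77%, 8.19% and 5.28% of all genes lay. Against the single heterozygous groups, the double had 1 such member in cortex and 3 in hippocampus for Slc25a1 (9.92% and 9.04% of all genes), and 3 and 1 for Mrpl40 (6.94% and 4.68%). The interaction had 2 in cortex and 0 in hippocampus (5.35% and 3.39%), and the difference between tissues 0, 4 and 1 in the 3 genotypes (6%, 5.83% and 5.03%). In none of the 6 comparisons with wild type did the libraries of any of the 40 members separate without overlap; among all genes tested 0.0294%, 0.0294% and 0.118% did in cortex and 0.164%, 0.0694% and 0.0546% in hippocampus, in the order Slc25a1, Mrpl40 and double heterozygous. The median SE of a member's difference was 0.06 in cortex and 0.09 in hippocampus. In simulated counts of the same size, 46.3%, 71.6% and 90.9% of genes changed by 1.25, 1.5 and 2-fold were recovered in the cortex double heterozygous comparison, and 44.8%, 68.7% and 87.9% in hippocampus. The changed genes were drawn from all genes tested, not from the members, and the labels were taken as correct.

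**Figure D4:**
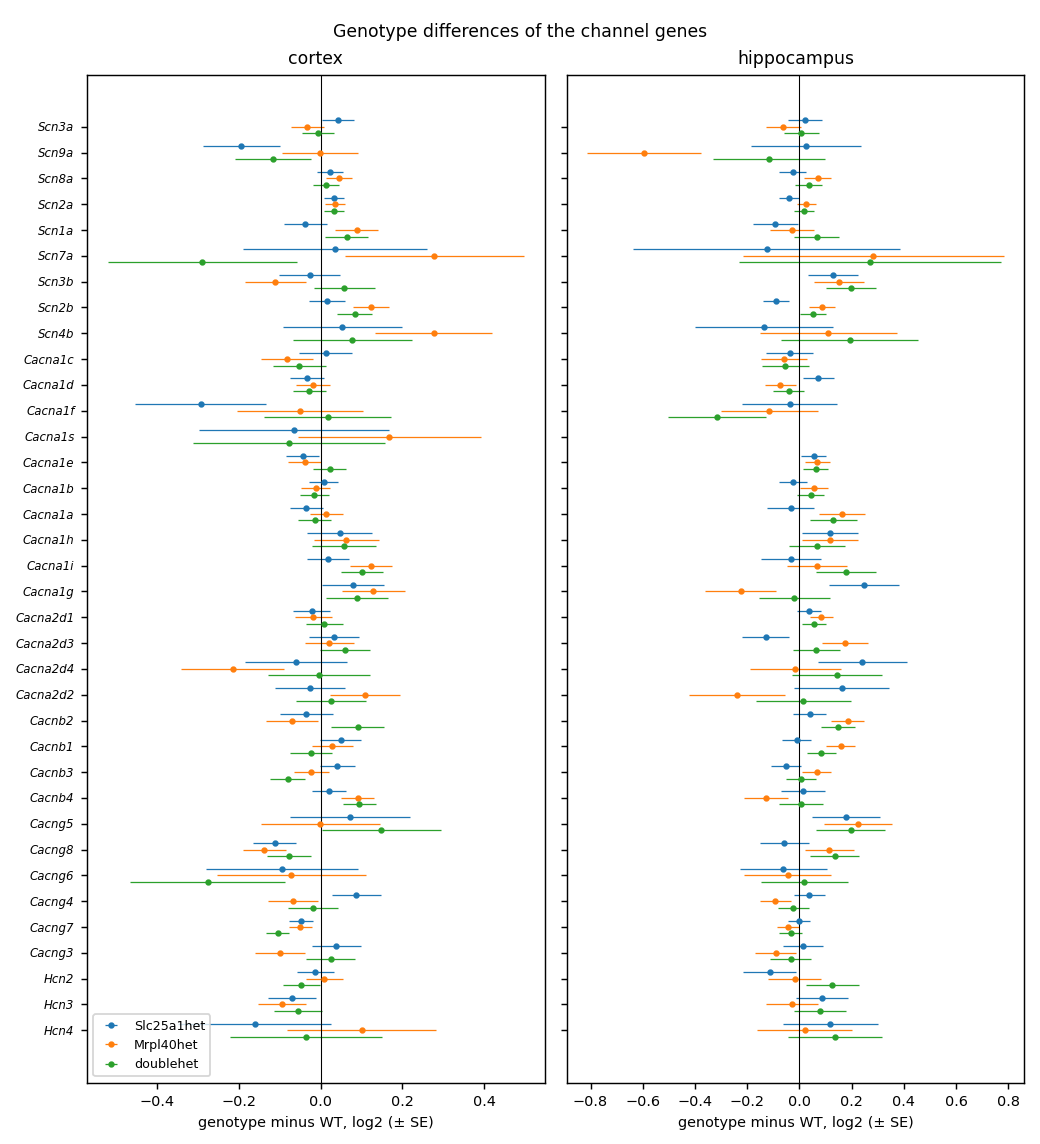
Difference of each heterozygous group from wild type on the log2 scale (x axis; points with SE bars, 7 animals against 9 wild-type cortex or 8 wild-type hippocampus libraries) for each tested member (y axis), except Scn10a, in cortex (left) and hippocampus (right), where Cacna1s was not tested; each panel has its own x scale. None of the points shown passed the edgeR test, and the bars are wider in hippocampus, with a median SE of 0.09 against 0.06 in cortex.

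The member with the smallest p of any comparison was Cacng7 in cortex of double heterozygous animals. It ran from 209 to 230 CPM in the 9 wild-type libraries (median 218) and from 192 to 209 in the 7 double heterozygous ones (median 203), of which 7 of 7 lay below the wild-type median and 6 of 7 below every wild-type library. The difference was -0.10 ± 0.03 (SE) with an edgeR adjusted p of 0.127. The DESeq2 Wald test, passed at 0.05 by 0.659% of the 16832 genes it adjusted, gave -0.10 ± 0.03 (DESeq2 adjusted p = 0.0334). With offsets for gene length and GC content the difference was -0.06 (edgeR adjusted p = 0.487). Over all alternatives it ran from -0.11 to -0.06 with adjusted p from 0.0334 to 0.51. Cacnb4 (0.09) and Cacna1i (0.10) had the next smallest p in that comparison, with edgeR adjusted p of 0.363 and 0.484.

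In cortex of Mrpl40 heterozygous animals the smallest p were those of Scn2b (0.12 ± 0.04), Cacng8 (-0.14 ± 0.05) and Cacna1i (0.12 ± 0.05), the first with an edgeR adjusted p of 0.576. In cortex of Slc25a1 heterozygous animals they were those of Cacng8 (-0.11), Scn9a (-0.19) and Cacna1f (-0.29), all with an edgeR adjusted p of 1.00. In hippocampus, Mrpl40 heterozygous animals were led by Cacnb2 (0.18 ± 0.06, edgeR adjusted p = 0.587), Cacnb1 (0.16) and Scn9a (-0.59 ± 0.22). Scn9a ran from 3.40 to 7.49 CPM in wild-type hippocampus and from 2.05 to 5.43 in Mrpl40 heterozygous hippocampus, so the groups overlapped. Double heterozygous hippocampus was led by Cacnb2 (0.15), Scn3b (0.20) and Cacna1f (-0.32), and Slc25a1 heterozygous hippocampus by Cacna1g (0.25), Scn2b (-0.09) and Cacna2d3 (-0.13), with 0.688 the smallest edgeR adjusted p of both.

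Between double and single heterozygous animals the smallest p in cortex were those of Cacnb3 (-0.12), Cacng7 (-0.06) and Cacnb2 (0.13) against Slc25a1 heterozygous, and Scn7a (-0.57), Cacnb2 (0.16) and Scn3b (0.17) against Mrpl40 heterozygous animals. In hippocampus they were those of Scn2b (0.14), Hcn2 (0.24) and Cacna2d3 (0.19) against the former, and Scn9a (0.48), Cacnb4 (0.13) and Cacna1g (0.21) against the latter. The interaction term, the double difference left after both single differences are added, was led by Cacng8 (0.17), Cacnb2 (0.20) and Scn7a (-0.60) in cortex and Hcn2 (0.26), Scn1a (0.19) and Scn9a (0.45) in hippocampus. For the difference of a genotype's effect between tissues, Mrpl40 heterozygous animals were led by Cacnb2 (0.24), Scn9a (-0.58) and Cacng8 (0.25), Slc25a1 heterozygous animals by Cacna2d3 (-0.19), Scn2a (-0.08) and Scn2b (-0.11), and double heterozygous animals by Cacng8 (0.20), Hcn2 (0.15) and Cacna1a (0.13). These genes are given by their rank alone, since none passed the edgeR test. With offsets for gene length and GC content, 11 of the 45 genotype differences named moved by over 1.5 times, each towards 0. Those of the double heterozygous effect between tissues became 0.07 (Cacng8), 0.01 (Hcn2) and 0.08 (Cacna1a). In the comparisons with wild type in cortex, Cacng8 became -0.06 in Mrpl40 and -0.07 in Slc25a1 heterozygous animals and Cacnb4 0.05 in double heterozygous ones. Against Slc25a1 heterozygous animals the double stood at -0.07 (Cacnb3) and -0.01 (Cacng7) in cortex and 0.14 (Hcn2) in hippocampus, and the hippocampus interaction of Hcn2 was 0.17. Without the 6 animals, Scn9a in Slc25a1 heterozygous cortex was -0.34, Cacng7 in double against Slc25a1 heterozygous cortex -0.04 and Cacna1g in Slc25a1 heterozygous hippocampus 0.16. This Cacna1g value was 0.14 without the 3 hippocampus libraries that held cerebellar or choroid plexus RNA, and the hippocampus interaction of Scn1a was 0.10 without wild-type replicate 8 and 0.12 with the replicate block. The list of channel partners and related channels gave the same count, 0 of 32 genes in each genotype comparison within a tissue. These genes were not counted for the difference of a genotype's effect between tissues.

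Of the 6 comparisons with wild type, the share of members above wild type was highest in hippocampus of double heterozygous animals. There 27 of 35 members lay above wild type (77.1%, median 0.05 on the log2 scale), against 48.6% of all genes. With offsets for gene length and GC content these were 62.9% of members and 52.3% of all genes. Members with a mean of at least 5 on the log2 CPM scale gave 79.2% of 24, against 57.7% of all genes at that level. Members are not independent samples, so these shares are a description.

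The members also differed in how much they varied among libraries of the same group. Scn2a was the tightest in cortex, with an SD of 0.03 on the log2 scale within groups, a spread lower than all but 0.0702% of genes. In hippocampus Scn2a had 0.07, and Scn10a, at 0 in 25 of 29 libraries there, had 0.04. Cacng7 (0.05) and Scn8a (0.06) followed in cortex. The widest in cortex was Scn7a with 0.42, above that of 99.1% of all genes, followed by Scn10a with 0.36. In hippocampus Scn7a had 0.78 and Scn4b 0.52. These percentages are over genes of any level and were not matched for it. Over all cortex libraries Scn7a and Scn10a had medians of 3.91 and 0.274 CPM, and Scn2a 336. Wild-type replicate 2 had the highest cortex level of Hcn4, 6.72 CPM, and the highest hippocampal marker sum of all cortex libraries, 225 CPM. The highest Cacng5 level in cortex, 9.29 CPM, was that of double heterozygous replicate 6, which also had the highest thalamic marker sum in cortex, 66.7 CPM. The part of neighbouring tissue in these levels was not tested.

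**Figure D5:**
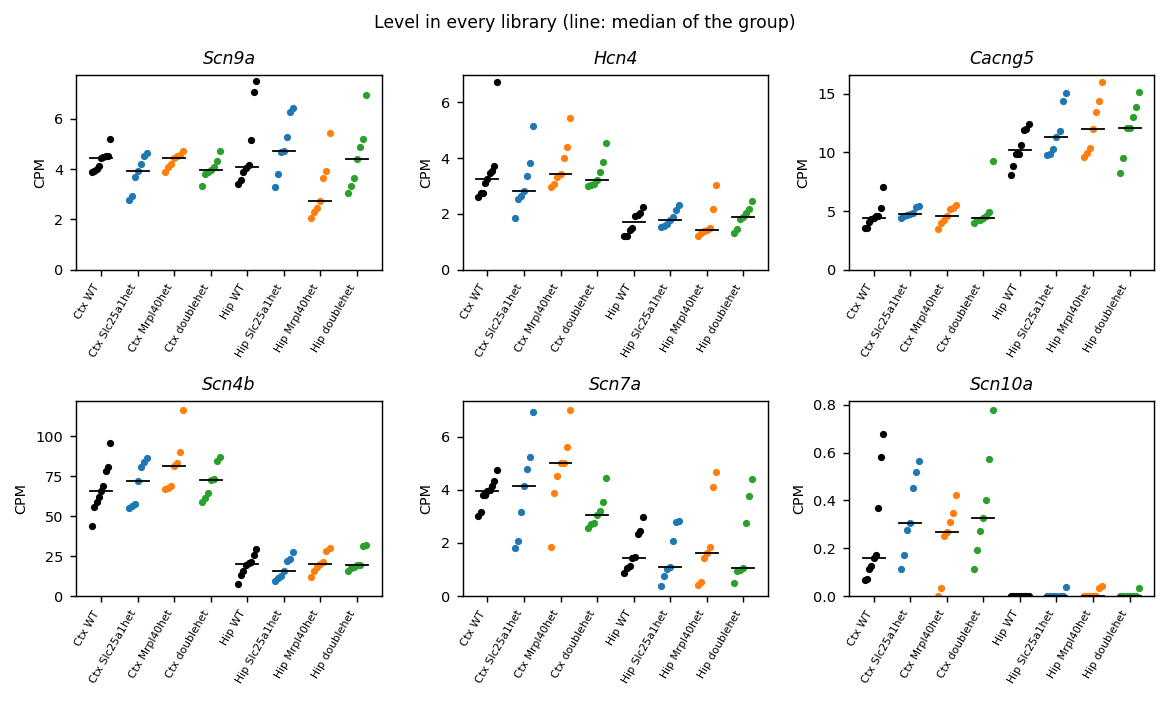
Level in CPM (y axis, from 0) of 6 members in each library, by tissue and labelled genotype (x axis); the line is the median of the group. Scn9a reaches 7.49 CPM in 1 wild-type hippocampus library, Scn4b and Scn7a lie lower in hippocampus, and Scn10a is at 0 in 25 of 29 hippocampus libraries.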

How the data were processed

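Whole cortex and hippocampus of the same animals were profiled by poly(A) RNA sequencing (directional NEBNext Ultra II kit, NovaSeq X Plus, paired reads, per the labels' protocols). The deposited table holds raw read counts per gene. The authors aligned reads with HISAT2 and counted them with featureCounts, on mm39 (GRCm39), per the submitters' processing notes. No source used here gives the annotation, the strand setting or a multi-mapping rule, so reads shared with overlapping or near-identical genes may be split. Coordinates, exon lengths and overlaps are from GENCODE vM21 on GRCm38, matched by gene identifier. Results for some genes of these families and of the marker lists are not reported here.

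Counts were tested with the edgeR 4.0.16 quasi-likelihood test (R 4.3.3, limma 3.58.1; TMM scaling, filterByExpr, robust dispersion, Benjamini-Hochberg over all genes tested, threshold 0.05). The tissue fit held the 29 animals with both tissues, with the animal as a block; each tissue had its own fit of 4 genotypes. Levels are CPM from TMM-scaled totals. The pairing by animal was taken from the labels. Deviations of the 2 tissues of an animal correlated with a median of 0.110 (-0.0299 to 0.416) over 29 animals and 5000 genes. For different animals the median was -0.00997 (-0.396 to 0.410), so the ranges overlapped. The 2 libraries of an animal also share a replicate number, so these values cannot tell the animal from the number. Replicate numbers are different animals in each genotype. Plots were drawn with matplotlib 3.10.9 in Python 3.11.15.

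The members, partner lists and marker lists were chosen with earlier results of these data known. Genes named in full are, for the wild-type tissue comparison, the 8 largest rises and falls, the highest member per family and the 4 largest partner differences, and for each genotype comparison every call or, with none, the 3 smallest p. Values of other members are given to account for each of them. The alternatives were DESeq2 1.42.0, its size factors, no count filter, length and GC offsets, a replicate block, a minimum fold, only the genotypes compared, and leaving out the 6 animals against their label or the 3 hippocampus libraries with cerebellar or choroid plexus RNA. Leaving out wild-type hippocampus replicate 8 was added after seeing the data. The scripts were tested on simulated counts: in the tissue comparison 43.3%, 61.2% and 87.9% of genes changed by 1.25, 1.5 and 2-fold were recovered.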

Additional observations from a re-analysis of the deposited data

Results flagged for a closer look

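In 25 of 296 combinations of a tested member and a group (8.45%), the highest or lowest library lay far from the rest of its group by Dixon's criterion; chance alone gives about 1 in 20. These cases came from 13 libraries, of which 3 gave 12 of the 25.

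Wild-type hippocampus replicate 8 stood apart for 5 members. It had the lowest Cacna1c (139.6 CPM, next library 172.6) and Cacna1h (169, next 237), and the highest Cacna2d2 (43.7, next 26.0), Cacnb4 (141, next 99.98) and Scn1a (112, next 81.0). In each case it lay to the cortex side of the other wild-type hippocampus libraries. The same library had the lowest hippocampal and highest neocortical marker sums among hippocampus libraries, 883 and 266 CPM; the part of neighbouring cortex in it was not tested. Without it 10 members were higher and 24 lower in wild-type hippocampus. All genes that passed then numbered 12810, against 12932 with it.

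Wild-type cortex replicate 2 stood apart for 4 members, all high: Cacna1e (313 CPM, next 277), Cacng5 (7.03, next 5.28), Hcn4 (6.72, next 3.71) and Scn9a (5.18, next 4.53). Double heterozygous cortex replicate 6 was high for Cacna1e (303 CPM, next 276) and Cacng5 (9.29, next 4.91).

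In hippocampus of Slc25a1 heterozygous animals, replicate 1 was high for Cacna2d3 (90.0 CPM, next 79.8) and Cacng8 (139, next 108), and replicate 3, which held cerebellar RNA, was high for Cacna2d2 (47.8, next 29.6). Mrpl40 heterozygous hippocampus replicate 5, which held choroid plexus RNA, was low for Cacna1d (70.4 CPM, next 76.8) and Cacng7 (128, next 145) and high for Scn1a (93.5, next 79.6). A single Scn10a read gave 0.0390 CPM in Slc25a1 heterozygous hippocampus replicate 4 and 0.0339 CPM in double heterozygous replicate 6, where the other libraries of the group were at 0.

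The remaining 6 cases were in cortex. Among Mrpl40 heterozygous libraries they were high Cacna1s (0.905 CPM) and Cacng6 (2.54) in replicate 1 and low Scn2a (329) in replicate 2. Slc25a1 heterozygous replicate 4 was low for Cacna2d1 (190.5 CPM). Double heterozygous replicate 3 was low for Cacnb1 (128), and replicate 4 was high for Scn2a (364).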

How the results depend on the processing

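Of 190 member counts under an alternative, 186 stayed within 1.5 times their main value. Most of the 186 were genotype counts at 0 in both the main test and the alternative, for which no ratio can be formed. The exceptions came with the minimum fold and the DESeq2 Wald test. With the minimum fold of 1.5, members lower in hippocampus numbered 15 (wild type), 14 (Mrpl40 heterozygous) and 12 (double heterozygous). The share of all genes at that fold is not given here, so these counts are a description. With the DESeq2 Wald test 1 member (Cacng7) passed in double heterozygous cortex. Of 296 recomputed wild-type tissue differences, 292 kept their direction and call. Scn2b turned from -0.0028 to 0.0013 without the count filter and to 0.0063 without wild-type hippocampus replicate 8; it passed under neither. Cacna1d passed without that library (0.13) and Cacng6 did not pass without the 6 animals (0.44); the cause was not tested. Of 354 genotype differences 353 kept direction and call. Replicate numbers are different animals in each genotype. With the replicate block, 0 members were called in every genotype comparison, and all genes called in double heterozygous cortex went from 14 to 8. Libraries of the same number in different genotypes had a median correlation over genes of 0.124 in cortex (-0.413 to 0.540 over 42 pairs), against -0.0268 for different numbers, and of 0.0448 in hippocampus, against 0.012; 8 of 30 cortex and 4 of 29 hippocampus libraries correlated best with a library of their own number. Without the animal block in the tissue fit, member counts stayed within 1.5 times. In double heterozygous cortex against wild type, all genes called numbered 14 in the main test, 111 with DESeq2, 22 without the filter, 7 with length and GC offsets and 2 without the 6 animals, and 56 of 190 counts over all genes moved by over 1.5 times. The split of higher and lower calls over all genes stayed between 48.7% and 51.6% higher. With the longest transcript, 47 family shares stayed within 1 SD and 33 did not, and the highest member was the same in 14 of 18 families and tissues. With 2 genotypes alone, the interaction could not be fitted. At these depths and group sizes, 46.3% of simulated 1.25-fold changes were recovered in cortex and 44.8% in hippocampus. The changed genes were drawn from all genes tested, at any level, so these shares are not those of the channel members. The simulation also took every label as correct. Smaller genotype differences may not be detectable.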
